A study of Mus musculus with 6 samples.

Results

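PU.1 binding was examined at 8 loci that carry regulators of haematopoietic stem and progenitor cells: Gata2, Kit, Flt3, Myb, Hoxa9, Meis1, Runx1 and Cd34. The loci were taken as 8 fixed windows of mouse build mm9, each named for its gene, with 1380 kb in all. Every peak overlapping a window counted, and no score entered the choice. Merged across the 4 ChIP libraries, these peaks formed 93 of the 82810 regions of the series. The 2 induced libraries came from iBN cells kept for 72 hours with doxycycline at 1000 ng per ml, and the 2 uninduced libraries came from iBN cells without doxycycline. Both groups were the same mouse line, labelled as granulocyte-macrophage progenitors, both carried the inducible PU.1 system, and both grew with GM-CSF. The labels used here do not say whether the line was 1 clone or whether the replicates were separate cultures. Peak lists hold no expression values, so the labelled cell type could not be checked against its markers.

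PU.1, of the ETS family of transcription factors, binds purine-rich DNA with a GGAA core and is required for myeloid and B-lymphoid development. Kit and Flt3 are receptor tyrosine kinases through which progenitors receive growth signals, and Cd34 is a surface sialomucin used to mark progenitors. Gata2, Myb and Runx1 are transcription factors that maintain or build the stem and progenitor pool, and Gata2 and PU.1 are known to antagonise each other. Hoxa9 and Meis1 are homeodomain partners that are active in progenitors and in myeloid leukaemia.

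The windows are Gata2 (chromosome 6, 88.05 to 88.20 Mb), Kit (chromosome 5, 75.90 to 76.06 Mb), Flt3 (chromosome 5, 148.09 to 148.26 Mb) and Myb (chromosome 10, 20.78 to 20.98 Mb). The others are Hoxa9 (chromosome 6, 52.12 to 52.23 Mb), Meis1 (chromosome 11, 18.77 to 18.97 Mb), Runx1 (chromosome 16, 92.60 to 92.88 Mb) and Cd34 (chromosome 1, 196.72 to 196.83 Mb). No mm9 annotation was used, so no region is placed in an exon, intron or promoter. In the RefSeq gene order of GRCm38.p6, Kit lies between Pdgfra and Kdr, Hoxa9 between Hoxa7 and Hoxa10, Flt3 between Urad and Pan3, and Runx1 between Clic6 and Setd4. Which gene a region acts on was not tested.

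The core of the PU.1 motif was looked up in the RefSeq promoters of the 8 genes (11 entries of 300 bases, GRCm38.p6), as a description of their letters. Both strands were searched for GAGGAA and for the longer GAGGAAGT, which contains it. GAGGAA occurred in 4 of the 11 entries, from 3 genes, and in 28.3% of all 32851 promoter entries. GAGGAAGT occurred in 0 of the 11 and in 3.20% of all. The entries with a match are printed below, 5′ to 3′ on the gene's strand, with GAGGAA or its reverse complement TTCCTC in capitals. Kit has a further entry that is shifted by a few bases and holds the same match. The positions are GRCm38.p6 and cannot be set against the mm9 peaks, so whether a peak covers these promoters was not tested. They are chr5:75574737-75575036 on the plus strand for Kit, chr6:52227321-52227620 on the minus strand for Hoxa9, and chr16:92697280-92697579 on the minus strand for Runx1.
Kit: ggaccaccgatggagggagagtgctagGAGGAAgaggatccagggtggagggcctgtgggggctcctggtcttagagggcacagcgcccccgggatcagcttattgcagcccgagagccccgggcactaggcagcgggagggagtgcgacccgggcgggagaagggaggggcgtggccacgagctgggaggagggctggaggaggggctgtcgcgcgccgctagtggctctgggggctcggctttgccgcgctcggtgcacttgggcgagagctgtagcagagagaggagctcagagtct
Hoxa9: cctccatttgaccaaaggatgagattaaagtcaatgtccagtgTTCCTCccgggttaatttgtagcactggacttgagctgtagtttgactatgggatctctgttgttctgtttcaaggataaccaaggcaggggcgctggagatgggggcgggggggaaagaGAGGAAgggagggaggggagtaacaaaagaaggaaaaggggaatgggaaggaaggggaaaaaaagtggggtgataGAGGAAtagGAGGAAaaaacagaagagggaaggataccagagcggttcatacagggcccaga
Runx1: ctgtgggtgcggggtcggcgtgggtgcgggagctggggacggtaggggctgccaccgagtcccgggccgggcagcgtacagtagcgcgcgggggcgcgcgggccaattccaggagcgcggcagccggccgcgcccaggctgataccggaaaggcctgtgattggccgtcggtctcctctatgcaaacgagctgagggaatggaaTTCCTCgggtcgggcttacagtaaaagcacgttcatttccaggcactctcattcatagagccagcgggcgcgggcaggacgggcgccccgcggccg
Hoxa9 holds 4 matches, 3 of them on the gene's own strand, Kit holds 1 on its own strand and Runx1 holds 1 on the other strand. A match is a description of the letters and not a binding site.

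The 4 libraries differed in the length of their lists. There were 68076 and 57336 peaks in induced replicates 1 and 2, against 31960 and 42951 in uninduced replicates 1 and 2. Read depth is unknown. A list shows what passed the authors' threshold, so a region without a peak may still be bound. The authors gave each peak 1 score. Below, a percentile is the place of a peak's score among all scores of its own list, from 0 to 100.

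PU.1 peaks at the 8 loci were about 2.13 times as many after induction. The windows held 84 and 80 peaks in induced replicates 1 and 2, against 33 and 44 in uninduced replicates 1 and 2. The means were 82.0 ± 2.83 and 38.5 ± 7.78 peaks (SD, n = 2 each). Peaks covered 97.4 ± 12.7 kb of the windows in induced cells and 39.0 ± 4.65 kb in uninduced cells (SD, n = 2 each), a ratio of 2.50. Over whole lists the ratios were 1.67 for peak number and 1.94 for covered length. As a share of each list, the windows took 12.3 and 14.0 of every 10000 peaks in the induced libraries and 10.3 and 10.2 in the uninduced ones, so the 2 conditions did not overlap in this share either. Per 100 kb, the windows held 5.94 peaks in induced and 2.79 in uninduced cells, against 2.38 and 1.42 over the whole genome up to the last peak of each chromosome. With every list limited to as many peaks as the shortest holds, the windows held means of 43.5 and 31.5 peaks.

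In 7 of the 8 windows both induced libraries held more peaks than both uninduced libraries. The same held in 45.5% of 12620 genome tiles of the mean window length (172.5 kb) that had a peak. It held in 84.9% of the 2262 tiles with at least as many peaks as the mean window (7.53 per library). Of the 8 windows, Flt3, Myb and Runx1 reached that mean and the others held fewer peaks. The tiles were not matched to each window, so neither share is a full background for the count of 7. The exact two-sided permutation test gave p = 0.333 in each of these 7, the smallest p that 2 libraries against 2 allow, so no window could pass a test. Meis1 was the exception, with p = 1 in the same exact test. As the replicates may be technical, these p-values measure only the spread between the libraries. With lists of equal length the differences of means lay between 0 and 5.5 peaks per window, and Gata2 was at 0. In 3 windows (Kit, Runx1 and Cd34) the conditions still did not overlap, where this held in 16.7% of tiles with a peak. The share in tiles rich in peaks was not computed for equal lists, so these 3 windows are not shown to exceed similar stretches.

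**Figure D1:**
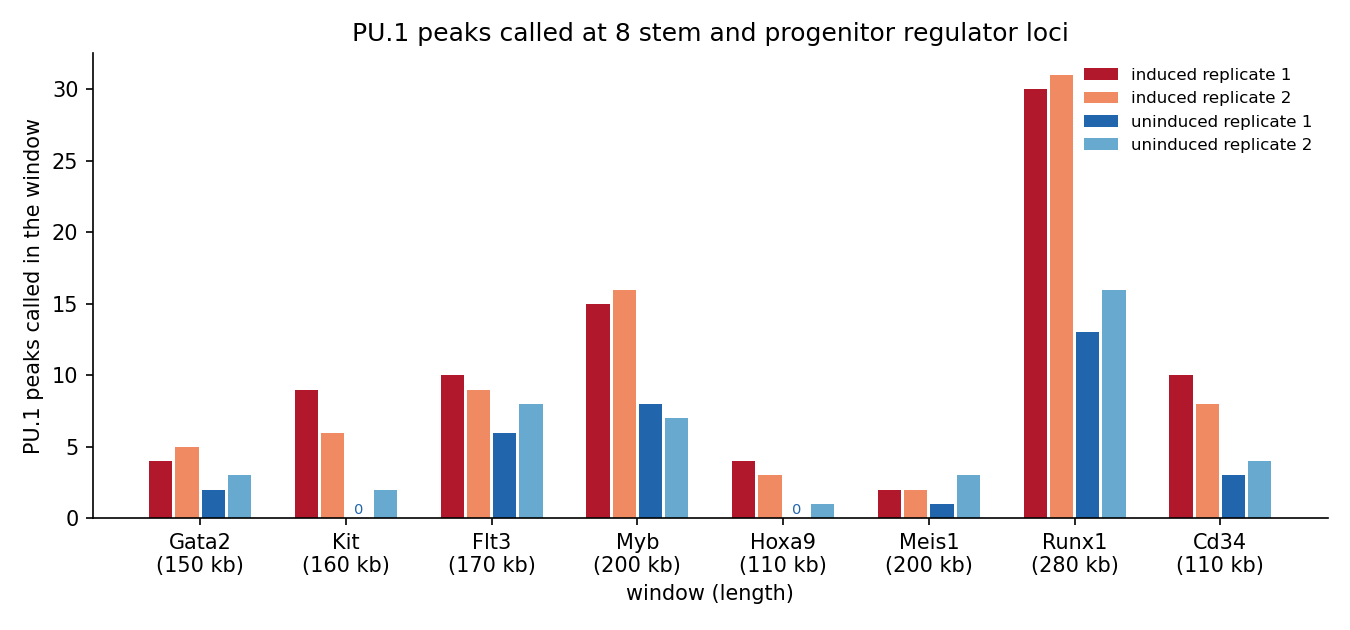
PU.1 peaks called in each window (vertical axis: number of peaks; horizontal axis: window with its length), 1 bar per library, induced libraries in red and uninduced libraries in blue. Runx1 held the most, with 30 and 31 peaks in induced and 13 and 16 in uninduced libraries, and uninduced replicate 1 had 0 in the Kit and Hoxa9 windows.

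The 93 regions were sorted by the libraries in which they had a peak. Gained regions had peaks in the 2 induced libraries alone, lost regions in the 2 uninduced libraries alone and shared regions in all 4, and any other pattern was mixed. Of the 93 regions, 33 (35.5%) were gained, where 22.2% of all regions of the series were. Another 27 (29.0%) were shared, where 23.4% of all regions were, and 1 (1.08%) was lost, where 3.8% of all regions were. The remaining 32 (34.4%) were mixed, where 50.5% of all regions were. The gained share was 35.0% in the 60 regions outside Runx1, so it did not rest on that window, which held 33 regions. Of the 71 regions with peaks in both induced libraries, 46.5% had none in uninduced cells, where the share was 35.9% over the series. Of the 28 regions with peaks in both uninduced libraries, 27 had peaks in both induced libraries (96.4%, where the share was 80.3% over the series). With lists of equal length 14 regions were gained (25.9%, where 12.4% of all regions were), 18 were shared (33.3%, where 27.9% of all regions were) and 3 were lost (5.56%, where 8.53% of all regions were). The regions are not independent samples and no test was made of these shares. The windows were denser in peaks than the genome, and the regions of the series were not matched for this. The shares over the series are therefore not a full background.

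Gained regions had lower scores than shared ones. The classes were themselves sorted by the lists in which a peak passed the threshold, so this gap is no independent result. In induced replicates 1 and 2 the 33 gained regions had median scores of 114 and 95.8, where the 27 shared regions had 504 and 375. Over the whole series the gained medians were 138 and 94.7 in the same libraries and the shared medians were 494 and 318, so the gap was not particular to the windows. In 8 of the 33 both induced percentiles exceeded 50. These were 3 regions each at Runx1 and Myb and 1 each at Gata2 and Cd34. The same share over all gained regions was not computed, so the 8 cannot be called many or few. Median percentiles of gained regions in induced replicates 1 and 2 were 37.5 and 34.6 in the windows, where they were 44.3 and 34.1 over the series. A peak in a single library was the pattern of 18 regions (19.4%), where it was that of 28.9% of all regions. In 12 of them (12.9% of the 93 regions) the library was induced replicate 1, the longest list, where 15.4% of all regions had that pattern.

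**Figure D2:**
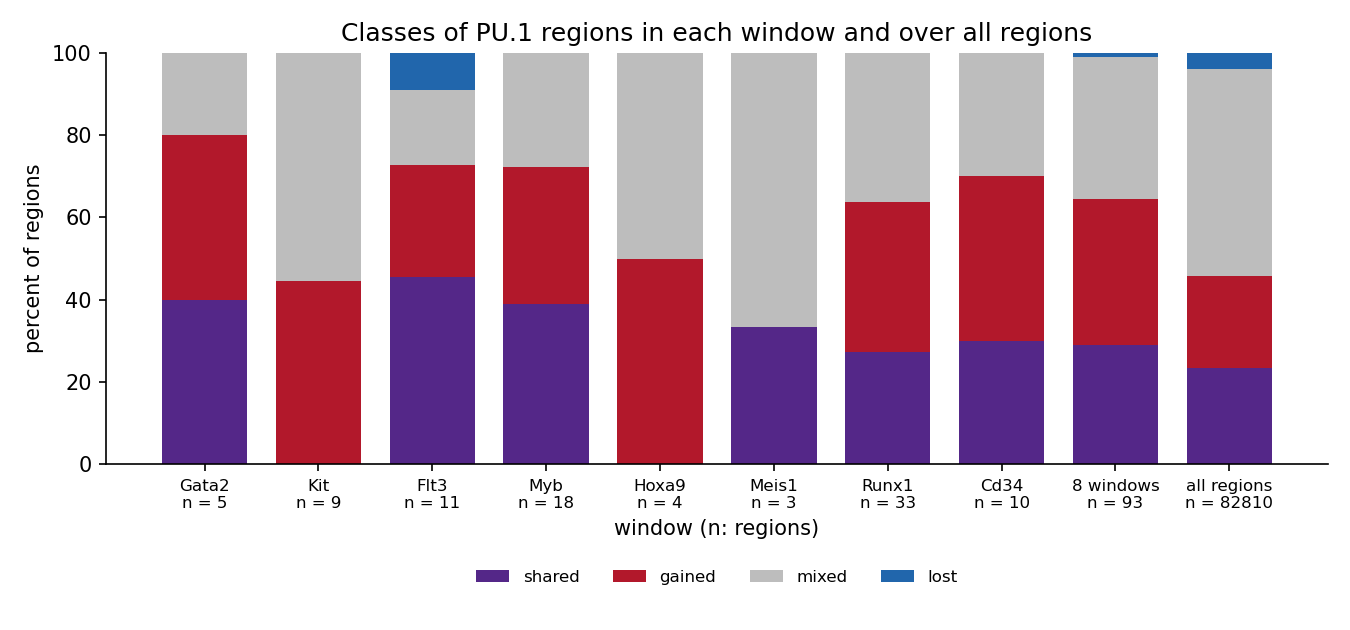
Classes of PU.1 regions in each window, in the 8 windows together and over all regions (vertical axis: percent of regions; n under each bar is the number of regions). Gained regions made up 35.5% of the 93 window regions and 22.2% of all 82810 regions, and the Kit and Hoxa9 windows had no shared region.

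**Figure D3:**
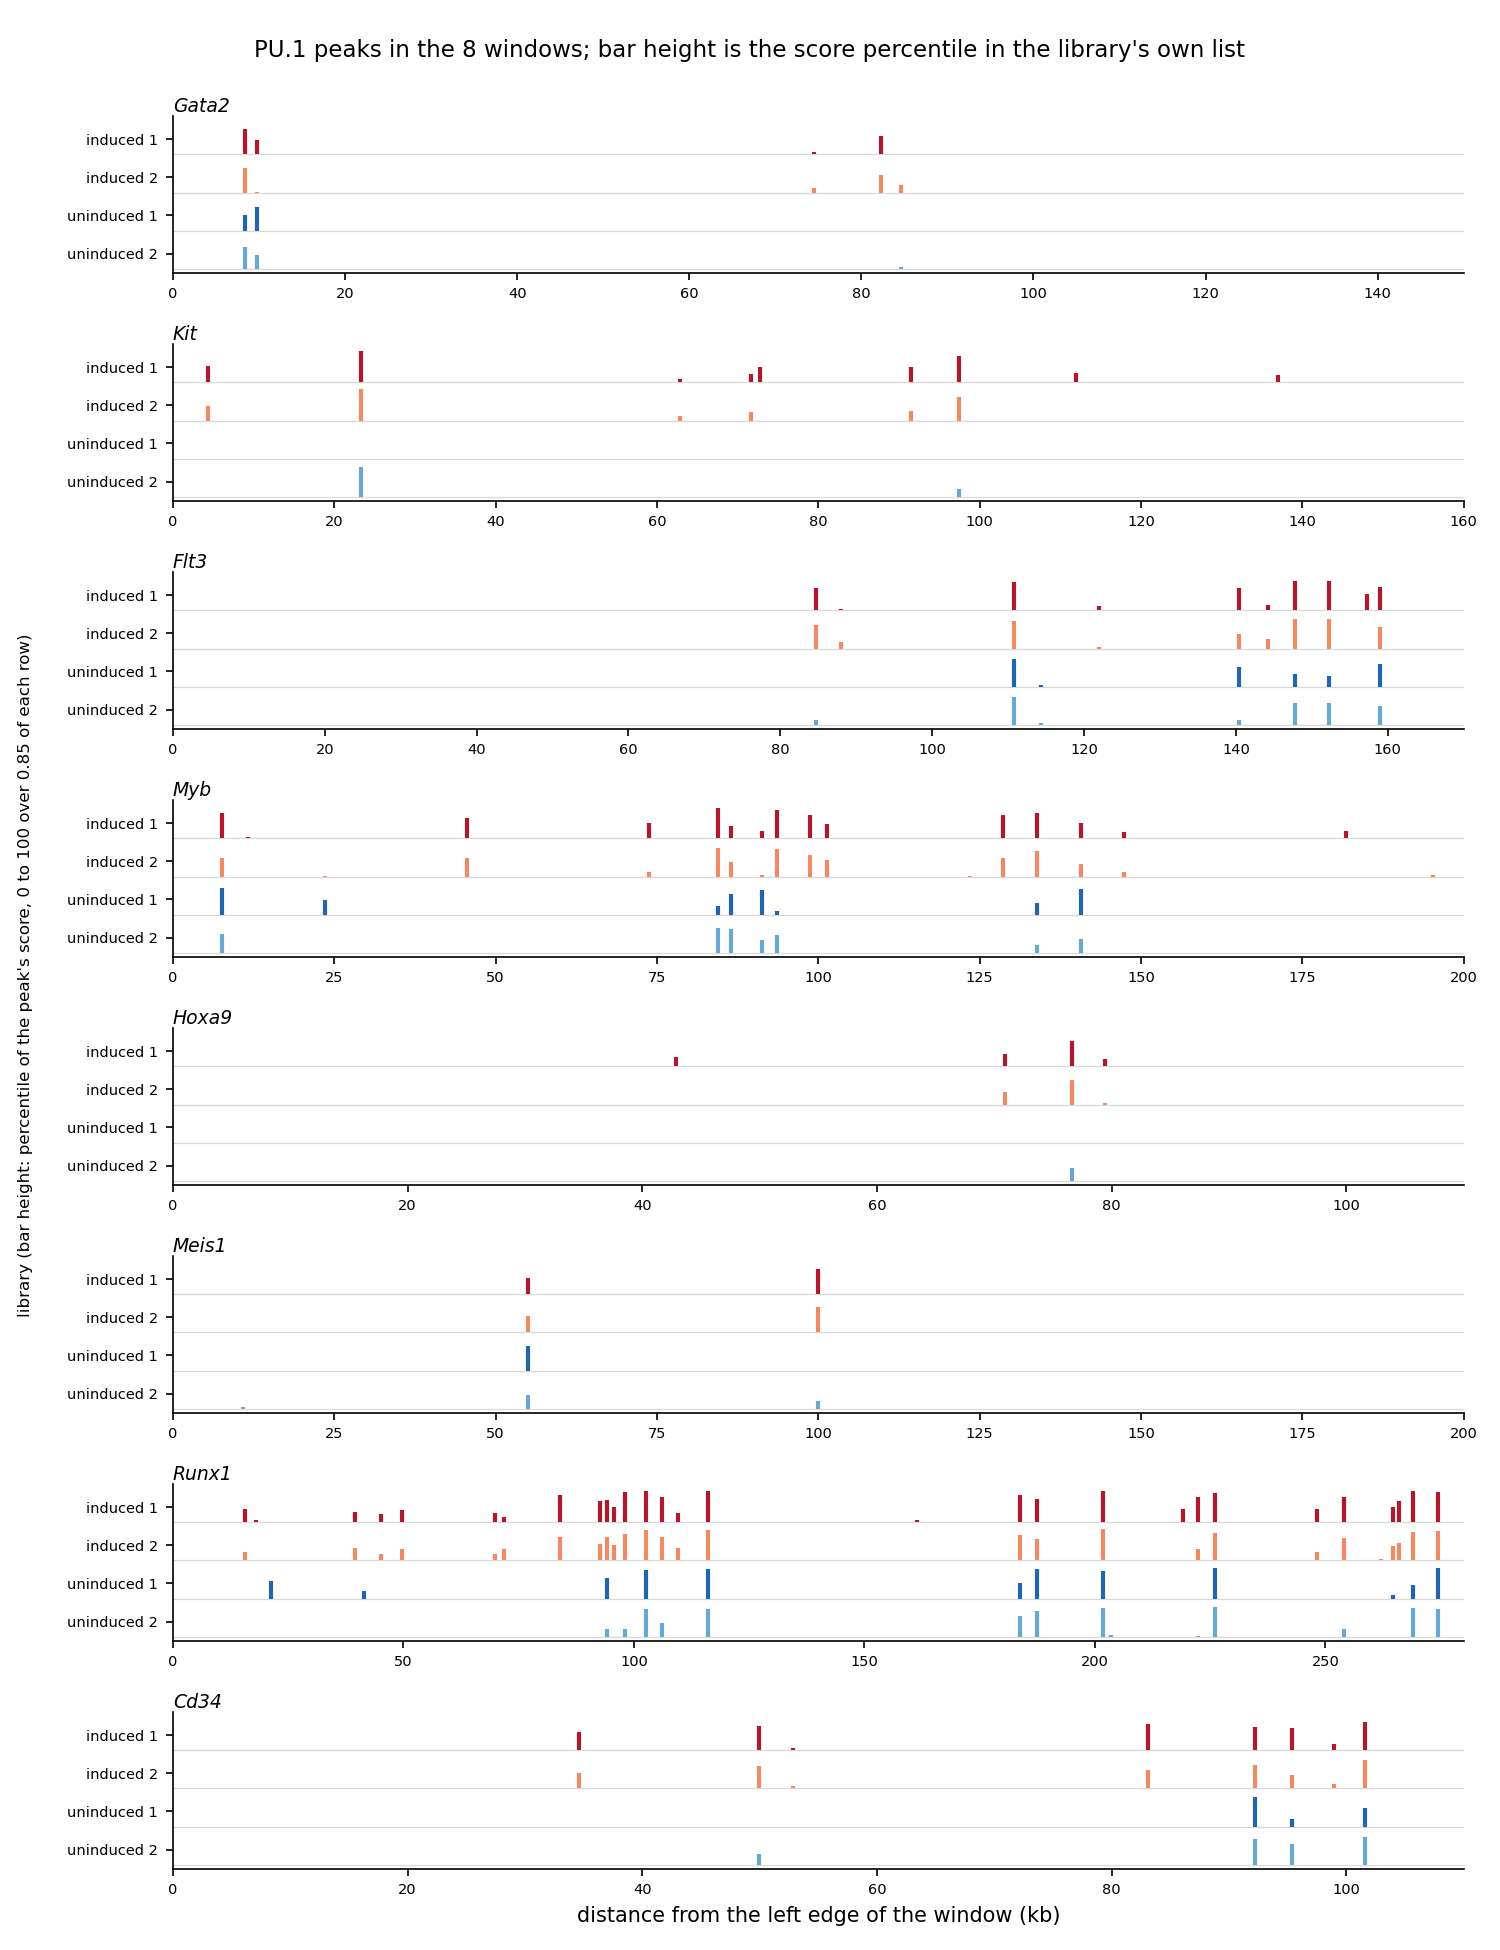
Peaks of each library along the 8 windows (horizontal axis: distance from the left edge of the window in kb; rows: libraries). A bar marks the middle of the merged region, and its height is the percentile of the library's best peak there, from 0 to 100. Runx1 and Myb were dense, and Meis1 held 3 regions in 200 kb.

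Among the receptor and surface marker genes, the difference of means was 6.5 peaks at Kit, 5.5 at Cd34 and 2.5 at Flt3. This order did not hold under all settings: with windows extended by 50 kb it was 5.5 at Kit, 7 at Cd34 and 6.5 at Flt3, and with lists of equal length it was 2 at both Kit and Cd34. The Kit window held 9 and 6 peaks in induced replicates 1 and 2, against 0 and 2 in uninduced replicates 1 and 2. Both induced libraries stood above both uninduced ones, and 4 of its 9 regions were gained, 5 were mixed and 0 were shared. The strongest region, chromosome 5, 75922697 to 75923844, scored 1745 and 1506 in induced replicates 1 and 2 and 603 in uninduced replicate 2, with no peak in uninduced replicate 1. Those scores stood at percentiles 96.9 and 98.1 of the induced lists and 92.3 of the list of uninduced replicate 2. The uninduced libraries thus differed at a site in the top decile of 1 of them, and the authors' merged uninduced list holds a peak there. A second region, 75996836 to 75998082, showed the same pattern of libraries, scoring 537 and 296 in induced cells and 68.2 in uninduced replicate 2. The strongest gained region of the window, 75903747 to 75904993, scored 162 and 124 in the induced libraries, at percentiles 49.8 and 45.3. In the 4 gained regions of Kit the lower of the 2 induced percentiles lay between 9.59 and 45.3, below the middle of the list. Another 3 regions had a peak in induced replicate 1 alone.

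Flt3, the receptor for the Flt3 ligand, had peaks in all libraries. Its window held 10 and 9 peaks in induced replicates 1 and 2, against 6 and 8 in uninduced replicates 1 and 2, the smallest ratio (1.36) among the 7 windows that differed. Of its 11 regions 5 were shared, 3 gained, 2 mixed and 1 lost. The first region began at 148174238, and the window before it, from 148.09 Mb, held no peak in any replicate list and 1 weak peak in the authors' merged induced list. A pair of neighbouring regions carried the highest induced scores. The region at chromosome 5, 148236774 to 148238704, scored 971 and 704 in induced replicates 1 and 2, against 85.5 and 196 in uninduced replicates 1 and 2. The region at 148241105 to 148243368 scored 974 and 703 in induced and 78.0 and 185 in uninduced libraries. The 3 gained regions of the window were weak: the strongest, 148233795 to 148234597, scored 69.7 and 85.8, at percentiles 17.1 and 29.5. The lost region, 148203898 to 148204783, scored 53.4 and 52.9 in uninduced replicates 1 and 2, at percentiles 5.51 and 4.19, close to the list minimum of 50.

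Cd34 lay in a dense window, with 8.18 peaks per 100 kb in induced and 3.18 in uninduced cells. It held 10 and 8 peaks in induced replicates 1 and 2, against 3 and 4 in uninduced replicates 1 and 2, and the conditions did not overlap. Of 10 regions 4 were gained, 3 shared and 3 mixed. The strongest in induced cells was chromosome 1, 196820970 to 196822266. It scored 811 and 560 in induced replicates 1 and 2, against 129 and 411 in uninduced replicates 1 and 2. Its percentiles were 88.1 and 86.8 in induced replicates 1 and 2, against 57.9 and 86.3 in uninduced replicates 1 and 2. Among the shared regions of each library it ranked at 67.6 and 70.1 in induced replicates 1 and 2. In uninduced replicates 1 and 2 it ranked at 38.9 and 71.4, so by this rank the conditions overlapped. A shared region at 196811641 to 196812767 had its best rank in uninduced cells: it stood at percentiles 71.3 and 70.9 of the induced lists and 90.8 and 78.3 of the uninduced lists. The strongest gained region, 196802054 to 196804077, scored 526 and 169 in induced replicates 1 and 2, at percentiles 80.3 and 56.6, and spanned 2024 bp.

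Among the transcription factors, Runx1, which is needed for definitive haematopoiesis, held the most regions: 33 of the 93, at 11.8 per 100 kb. There were 30 and 31 peaks in induced replicates 1 and 2, against 13 and 16 in uninduced replicates 1 and 2. The regions comprised 12 gained, 9 shared and 12 mixed ones. In induced replicate 1 the highest score of the window, 1957, was at 92867162 to 92870987. By the lower of the 2 induced percentiles, the strongest region was chromosome 16, 92800595 to 92802940. It scored 1789 and 1284 in induced replicates 1 and 2, against 382 and 450 in uninduced replicates 1 and 2. The regions at 92701771 to 92703660 and 92714744 to 92717444 also ranked high throughout, at percentiles of at least 94.4 in induced and at least 84.6 in uninduced libraries. The region at 92825229 to 92827007 held the highest uninduced scores of the window, 882 and 649, beside 993 and 506 in induced replicates 1 and 2. Among the shared regions of each library it ranked lower in both induced libraries (74.6 and 66.6) than in both uninduced ones (91.1 and 85.4).

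The strongest gained region of Runx1 was 92683104 to 92684907, which scored 645 and 307 in induced replicates 1 and 2, at percentiles 84.2 and 73.9. It had the highest lower percentile of all 33 gained regions in the 8 windows. Most other gained Runx1 regions scored low: 3 of the 12 exceeded the list median in both induced libraries, a share not computed over the series. The broad region at 92867162 to 92870987, 3826 bp wide, differed within both conditions. It scored 1957 and 550 in induced replicates 1 and 2, against 89.0 and 443 in uninduced replicates 1 and 2. Another broad region, 92820545 to 92824341, scored 452 and 94.4 in induced replicates 1 and 2 and 50.8 in uninduced replicate 2, with no peak in uninduced replicate 1.

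Myb, which drives progenitor proliferation, had 15 and 16 peaks in induced replicates 1 and 2, against 8 and 7 in uninduced replicates 1 and 2. Of its 18 regions 7 were shared, 6 gained and 5 mixed. The strongest in both induced libraries, chromosome 10, 20863475 to 20865382, scored 1215 and 617 in induced replicates 1 and 2, against 69.2 and 258 in uninduced replicates 1 and 2. By the lower of the 2 induced percentiles, the strongest gained region was 20877395 to 20880117, which was 2723 bp wide. It scored 380 and 235 in induced replicates 1 and 2, at percentiles 73.2 and 66.5. The gained region at 20907923 to 20909455 scored slightly higher in induced replicate 1 (380.28 against 379.74) and lower in induced replicate 2 (170). Gained regions of Myb often lay close to shared ones, with 5 of 6 within 10 kb. Over all 8 windows this held for 13 of 33 (39.4%), where the share was 33.1% over all gained regions of the series.

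Gata2 had few peaks: 4 and 5 in induced replicates 1 and 2, against 2 and 3 in uninduced replicates 1 and 2. Its 5 regions fell into 2 groups, 63.7 kb apart. The left group held both shared regions, and the right group held both gained regions and 1 mixed one. The shared region at chromosome 6, 88057798 to 88058889, was the strongest in induced cells and scored 474 and 351 in induced replicates 1 and 2, against 101 and 190 in uninduced replicates 1 and 2. Its neighbour at 88059171 to 88060392 scored 141 and 51.5 in induced replicates 1 and 2, against 222 and 98.4 in uninduced replicates 1 and 2. The strongest gained region, 88131707 to 88132973, scored 206 and 160, at percentiles 57.1 and 54.7. The other, 88124077 to 88124844, scored 58.1 and 62.7.

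The difference of means was 3 peaks at Hoxa9 and 0 at Meis1, the homeodomain genes, and 0.5 at both with lists of equal length. The Hoxa9 window held 4 and 3 peaks in induced replicates 1 and 2, against 0 and 1 in uninduced replicates 1 and 2. Its strongest region, chromosome 6, 52196060 to 52197172, scored 495 and 320 in induced replicates 1 and 2 and 92.7 in uninduced replicate 2, with no peak in uninduced replicate 1. The strongest of its 2 gained regions, 52190045 to 52191786, scored 112 and 107, at percentiles 36.8 and 39.1. The Meis1 window, with 2 and 2 peaks in induced libraries against 1 and 3 in uninduced replicates 1 and 2, had no gained region. It held 1 peak per 100 kb in both conditions, the lowest density of the 8 windows in induced cells but not in uninduced cells, where Kit had 0.625 and Hoxa9 0.45. Its strongest region, chromosome 11, 18869463 to 18870502, scored 464.5 and 350 in induced replicates 1 and 2 and 69.6 in uninduced replicate 2, with no peak in uninduced replicate 1. The shared region of Meis1, 18824587 to 18825587, scored 161 and 138 in induced replicates 1 and 2, against 242 and 100 in uninduced replicates 1 and 2. Among the shared regions of each library it ranked at 15.6 and 22.3 in induced replicates 1 and 2. In uninduced replicates 1 and 2 it ranked at 61.9 and 16.2, so by this rank the conditions overlapped.

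At the strongest region of Kit, Hoxa9 and Meis1, uninduced replicate 1, the shortest list, was the single library without a peak. This pattern held for 10 of the 93 regions (10.8%), where it held for 14.6% of all regions. Whether the missing calls in uninduced replicate 1 reflect depth was not tested.

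Shared regions were compared by rank, since scores of different lists are not on 1 scale. Within each library all 19391 shared regions were ranked by score from 0 to 100, and the mean uninduced rank was subtracted from the mean induced rank. The 27 shared regions of the windows had a median difference of 3.91 points, where it was 0.22 over all shared regions. They split almost evenly, with 15 above 0 and 12 below. Both induced ranks exceeded both uninduced ranks in 9 of the 27, where this held for 30.6% of all shared regions. Both lay below in 8, where this held for 30.8% of all. Without induced replicate 2 the median difference was 11.1 points, without uninduced replicate 1 it was 11.3, without induced replicate 1 it was -1.64, and without uninduced replicate 2 it was -2.50, so its sign depended on the library left out.

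The differences ran both ways within single loci. Myb showed both extremes of the 27 regions, 1105 bp apart. Its region at 20872938 to 20874129 ranked at 69.2 and 66.8 in induced replicates 1 and 2, against 5.51 and 24.5 in uninduced replicates 1 and 2, a difference of 53.0 points. Its region at 20870754 to 20871833 ranked at 3.29 and 1.27 in induced replicates 1 and 2, against 61.5 and 13.7 in uninduced replicates 1 and 2, a difference of -35.3 points. Of the 7 shared Myb regions, 3 stood higher in both induced libraries and 3 stood lower. In Flt3 the pair of strong regions described above stood 43.9 and 46.9 points higher in induced cells. In Runx1, 92786810 to 92788022 ranked at 39.1 and 38.2 in induced replicates 1 and 2, against 86.7 and 60.7 in uninduced replicates 1 and 2. The extremes were picked by their values and carry no test.

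**Figure D4:**
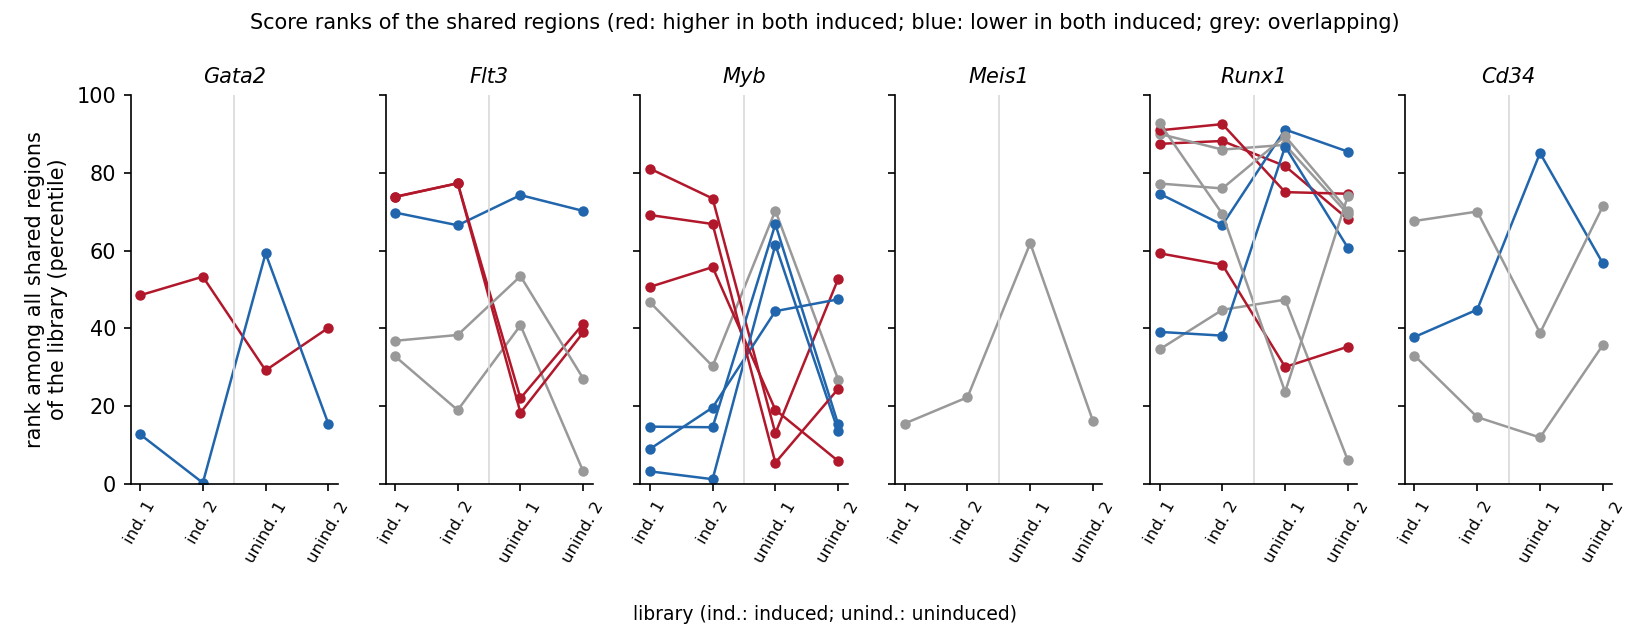
Ranks of the 27 shared regions among all shared regions of each library (vertical axis: percentile; horizontal axis: the 2 induced and 2 uninduced libraries), 1 line per region, by window. Red lines (9 regions) were higher in both induced libraries, blue lines (8) were lower in both, and grey lines overlapped between conditions; Kit and Hoxa9 had no shared region.

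The authors' merged lists, 1 per condition, gave 91 induced and 37 uninduced peaks in the windows. Of the 91 merged induced peaks, 59 (64.8%) had no overlap in the merged uninduced list, where 53.4% of all merged induced peaks had none. Of the 37 merged uninduced peaks, 3 (8.11%) had no overlap in the merged induced list, where 22.4% of all had none. All 33 gained regions had a peak in the merged induced list, where 99.8% of all gained regions of the series had one. In the Myb window 1 of them (3.03%), at 20926858 to 20927922, also had one in the merged uninduced list. This held for 3.94% of all gained regions. Another 7 merged induced peaks had no counterpart in any replicate list, 3 of them at Runx1 and 1 each at Kit, Flt3, Hoxa9 and Cd34, with scores from 50.9 to 63.8.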

How the data were processed

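PU.1 ChIP-seq was read from 4 library peak lists and 2 merged lists. Per the submitters' processing notes, Trim Galore, Bowtie and MACS 1.4.1 were used with build mm9. The authors deposited 1 score for each peak, at least 50 and of no stated scale, so scores were ranked within a list. The control used for calling, the read filters, the way replicates were merged and the read totals are not given in the labels or lists used here. The 2 input libraries were not analysed here. Peaks sharing at least 1 bp were merged into regions, and starts are counted from 1. Python 3.11.15, NumPy 2.4.6 and pandas 2.3.3 were used, and the functions were tested on simulated data. The peak number of each window was compared with an exact permutation test over libraries.

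For the background of window counts, chosen after the data were seen, each chromosome was cut end to end into tiles up to its last peak. The loci, windows and comparisons were chosen with earlier results of these data known. For each window the text names the region whose weaker induced percentile was highest, the gained region for which this was so and every lost region. Also named were the shared regions with the largest rank difference in each direction. Other regions named were chosen after their values were seen. Alternatives were lists of equal length, an overlap of 50% of both intervals, windows extended by 50 kb, a score minimum of 100, use of the merged lists, leaving out each library in turn, leaving out gained or lost regions with a peak in the other merged list, and a block by replicate number.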

Additional observations from a re-analysis of the deposited data

How the results depend on the processing

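Differences are induced minus uninduced means. The peak number in the windows, 43.5 more in induced cells, differed by 12 with lists of equal length, 32.5 with scores of at least 100, 52 with extended windows and 54 in the merged lists. Covered length, 58.4 kb more, differed by 28.1, 48.2, 69.6 and 78.4 kb in the same order. The share per 10000 peaks, 2.86 more, differed by 3.75 with equal lists, 1.89 with extended windows and 4.35 in the merged lists. At Gata2 the difference of 2 peaks was 0 with equal lists. Gained regions (33) numbered 14 with equal lists, and shared regions (27) numbered 15 with scores of at least 100. The lost region (1) became 3 with equal lists, 2 with 50% overlap, 0 with scores of at least 100 and 3 with extended windows. Leaving out a library gave 1 to 3 lost regions (3 without uninduced replicate 1, 2 without uninduced replicate 2), 34 to 45 gained and 27 to 37 shared. The median rank difference of 3.91 points was 11.6 with equal lists and ran from -2.50 to 11.3 without 1 library. It was also below 0 with scores of at least 100 (-1.57) and with extended windows (-0.57). The Meis1 difference ran from -1 to 1. The share of gained regions exceeded that of all regions, and the share of lost regions stayed below it, in all 9 alternatives that give classes. The causes of these changes were not tested, except for what holds by construction. Equal lists hold fewer peaks in every library but uninduced replicate 1, whose list sets the length and is unchanged. A score minimum leaves fewer peaks, and extended windows cannot hold fewer. With a library left out, the rule for each class rests on 1 library fewer.

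With the replicate number as a block, the difference in peak number was the same 43.5, which holds by construction and shows no robustness. The labels give the numbers no shared origin, and deviations of same-numbered libraries correlated at -0.025 over the 19391 shared regions, so the numbers were not used as pairs. Unknown read depth limits every statement on an absent peak.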
